A study of Mus musculus with 10 samples.

Results

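The genes described here encode 7 secreted proteins of inflammation and iron handling, Lcn2, Slpi, Cp, Ltf, Saa3, C3 and Hp, followed here across cultures of 4T1 cells, a mammary carcinoma line of the mouse. Their probes were taken as every probe of the array table that carries one of these gene symbols, which gave 12 of 45281 probes. These probes stood for 6 of the 7 genes, since no probe under the symbol C3 was found in the annotation used here. At least 1 probe was detected on at least 1 array for 4 genes, namely Lcn2, Slpi, Cp and Saa3. The 2 probes of Ltf and the 3 probes of Hp were detected on 0 of 10 arrays. The genes were chosen by measured values of these same arrays, including their differences between the groups, so those differences are given below as a description. Where a count past the threshold of the fit over all genes is given for them, it stands beside the share of all genes and is no evidence of a difference.

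Sublines were isolated from brain metastases (B, 4 arrays, B1 to B4), lung metastases (L, 3 arrays, L1 to L3) and primary tumours (P, 3 arrays, P1 to P3), with 1 Illumina mouse whole-genome bead array per subline. All groups derived from the same luciferase-tagged 4T1 cells grown in young female BALB/c mice, so that the luciferase tag and the host strain were common to B, L and P. The deposited design calls the inoculation orthotopic and the methods call it subcutaneous. The organs were dissociated and the tumour cells grown out in culture for 3 to 4 passages before RNA was taken, so the values describe cultured cells after outgrowth and not cells within the organ. The sublines were isolated independently, but the sources used here do not say which of them came from the same mouse. The p-values given for other genes measure only the spread between these sublines.

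In the acute-phase response, injured or infected tissue releases interleukin 6, interleukin 1 and tumour necrosis factor, and liver and barrier epithelia answer by secreting defence proteins. Interleukin 6 acts mainly through the transcription factor STAT3, interleukin 1 and tumour necrosis factor act through NF-kappaB, and C/EBP factors take part in both arms. Several of the products withhold iron from microbes or handle it safely: lipocalin 2 (Lcn2) captures bacterial siderophores, lactoferrin (Ltf) binds iron in milk and in neutrophil granules, ceruloplasmin (Cp) is a copper-carrying ferroxidase, and haptoglobin (Hp) binds free haemoglobin. Others act on proteases, lipids or complement: Slpi inhibits neutrophil serine proteases, Saa3 is a serum amyloid A made outside the liver in mice, and C3 is the central complement protein.

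The genes lie on different chromosomes of the GRCm38.p6 build, apart from Lcn2 (chr2:32384637-32387739) and Slpi (chr2:164354070-164356507), which share chromosome 2 but lie far apart on it. Cp lies at chr3:19956933-20009750, Saa3 at chr7:46711998-46719615, Ltf at chr9:111019292-111042766, C3 at chr17:57203967-57228136 and Hp at chr8:109575128-109579172. The start regions of the 4 detected genes are shown because C/EBP factors are known regulators of acute-phase genes and because their levels, given below, fall into different patterns. Each sequence is the RefSeq window (GRCm38.p6) of 300 bases around the transcription start, written 5′ to 3′ on the strand of the gene, and capitals mark a match to the C/EBP-type motif TTGCNNAA or its reverse complement TTNNGCAA. The windows are chr2:32387690-32387989 for Lcn2 and chr2:164356458-164356757 for Slpi on the minus strand, chr3:19956999-19957298 for Cp on the plus strand and chr7:46715627-46715926 for Saa3 on the minus strand. For Cp and Saa3 the start behind the window lies inside the gene interval given above and not at its edge.
Lcn2: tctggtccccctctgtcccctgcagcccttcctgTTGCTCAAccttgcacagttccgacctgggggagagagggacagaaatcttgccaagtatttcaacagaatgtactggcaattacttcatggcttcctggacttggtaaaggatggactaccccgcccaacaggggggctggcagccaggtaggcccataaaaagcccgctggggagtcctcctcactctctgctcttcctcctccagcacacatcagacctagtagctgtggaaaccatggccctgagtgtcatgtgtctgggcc
Slpi: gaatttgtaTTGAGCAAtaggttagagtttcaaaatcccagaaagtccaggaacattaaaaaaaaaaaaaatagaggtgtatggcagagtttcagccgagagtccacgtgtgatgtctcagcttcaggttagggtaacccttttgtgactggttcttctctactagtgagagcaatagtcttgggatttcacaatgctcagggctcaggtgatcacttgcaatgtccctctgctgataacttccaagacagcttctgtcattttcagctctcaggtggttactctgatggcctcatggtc
Cp: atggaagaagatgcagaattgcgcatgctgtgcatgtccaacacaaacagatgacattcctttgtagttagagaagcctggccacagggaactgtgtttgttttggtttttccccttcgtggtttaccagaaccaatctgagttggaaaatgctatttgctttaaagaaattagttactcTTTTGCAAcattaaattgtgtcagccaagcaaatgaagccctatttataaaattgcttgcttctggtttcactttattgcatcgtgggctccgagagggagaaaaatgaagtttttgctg
Saa3: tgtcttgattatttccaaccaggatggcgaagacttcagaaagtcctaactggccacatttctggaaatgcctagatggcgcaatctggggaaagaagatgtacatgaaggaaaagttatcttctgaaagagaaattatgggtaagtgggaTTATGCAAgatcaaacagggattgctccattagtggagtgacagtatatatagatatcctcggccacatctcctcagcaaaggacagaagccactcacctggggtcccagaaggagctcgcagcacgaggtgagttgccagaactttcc
The first base of the match lay at position -216 from the start in Lcn2, at -241 in Slpi, at -70 in this window of Cp and at -99 in Saa3. A second RefSeq window of Cp held none and is not shown. Ltf and C3 each held 1 match as well, at -75 and -45, and Hp had no entry in the table. The motif was thus found in at least 1 window of 6 of 6 genes with a window, a count by gene. It was found in 10.8% of all 32851 windows of this length, a share by window, so the 2 are not the same measure. A kappaB consensus (8.46% of all windows) and the STAT-type motif TTCNNNGAA (8.3% of all windows), both searched on both strands, had 0 matches in the windows of these genes. Such matches describe letters in a window and not bound sites, and all 4 detected genes held the C/EBP-type motif whatever their pattern across the sublines.

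Slpi and Cp had the same order across the sublines, with the highest values in B, intermediate values in L and the lowest in P. Lcn2 was instead highest in L on average and differed widely between sublines of the same origin, and Saa3 was near the detection limit and detected on 2 of 3 L arrays and 1 of 3 P arrays only. All levels below are normalized log2 intensities, and a probe counts as detected at a detection p of 0.01 or less. Levels of different probes are not compared with each other, since probes differ in brightness.

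**Figure D1:**
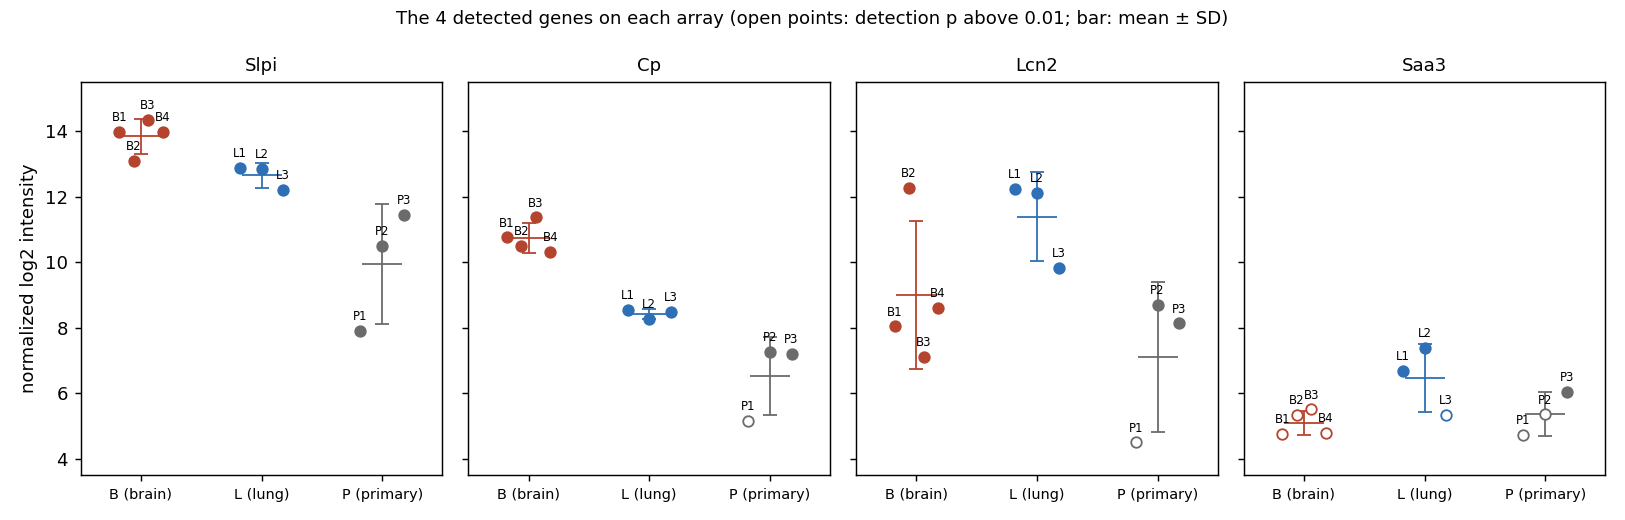
Normalized log2 intensity (vertical axis) of Slpi, Cp, Lcn2 and Saa3 on each array, with B, L and P sublines from left to right, the mean ± SD as bars and open points for arrays on which the probe was not detected. Slpi and Cp do not overlap between the 3 groups, B2 stands at 12.27 for Lcn2 among B arrays of 7.11 to 8.60, and P1 is the lowest array of all 4 genes in P.

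Slpi, the inhibitor of neutrophil elastase and cathepsin G, was detected on all 10 arrays. It stood at 13.98, 13.09, 14.35 and 13.98 on B1 to B4, at 12.89, 12.86 and 12.22 on L1 to L3, and at 7.90, 10.50 and 11.44 on P1 to P3. Every B array was above every L array, and every L array was above every P array. The B arrays averaged 13.85 ± 0.54 (SD, n = 4), the L arrays 12.65 ± 0.38 (SD, n = 3) and the P arrays 9.95 ± 1.83 (SD, n = 3). B exceeded P by 3.90 (SE 0.70), or 15.0-fold, B exceeded L by 1.20 (SE 0.30), and L exceeded P by 2.71 (SE 0.71). P1 was the lowest array, and without it the differences were 2.88 for B against P and 1.69 for L against P.

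Cp, the ferroxidase that oxidizes iron as it leaves the cell, was represented by 4 probes. On the probe with the largest interquartile range, ILMN_2520239, it stood at 10.76, 10.50, 11.37 and 10.32 on B1 to B4, at 8.55, 8.26 and 8.47 on L1 to L3, and at 5.14, 7.25 and 7.19 on P1 to P3, where P1 was not detected. The 3 groups did not overlap, and the L arrays lay within a narrow band. The means were 10.74 ± 0.46 in B (SD, n = 4), 8.43 ± 0.15 in L (SD, n = 3) and 6.53 ± 1.20 in P (SD, n = 3). B exceeded P by 4.21 (SE 0.49), or 18.5-fold, B exceeded L by 2.31 (SE 0.25), and L exceeded P by 1.90 (SE 0.47). Without P1 the differences were 3.52 for B against P and 1.20 for L against P, and with the processed values of the authors they were 2.88 and 0.96.

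The other Cp probes gave the same order of means but not the same sizes. Between B and P the difference was 3.14 on ILMN_3083163, 2.21 on ILMN_2555238 and 1.81 on ILMN_1218681, and the B arrays lay above the P arrays on all 4 probes. The dimmer probes, ILMN_2555238 and ILMN_1218681, were not detected on any P array, so that their folds are lower bounds of at least 2.69-fold and at least 2.06-fold. Such bounds hold for the normalization used here only. Between B and L the size depended on the probe: against 2.31 on ILMN_2520239, it was 0.91 on ILMN_3083163, 0.48 on ILMN_2555238 and 0.95 on ILMN_1218681. On ILMN_2555238 and ILMN_1218681 the B and L arrays overlapped, as B2 was at 6.83 and 6.24 on these probes, against up to 6.89 and 6.36 on the L arrays. Between L and P the difference was 2.23 on ILMN_3083163, and L was higher by at least 1.93-fold on ILMN_2555238 and at least 1.06-fold on ILMN_1218681. The position of these probes within the Cp transcripts was not used here, and whether they read different transcripts was not tested.

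**Figure D2:**
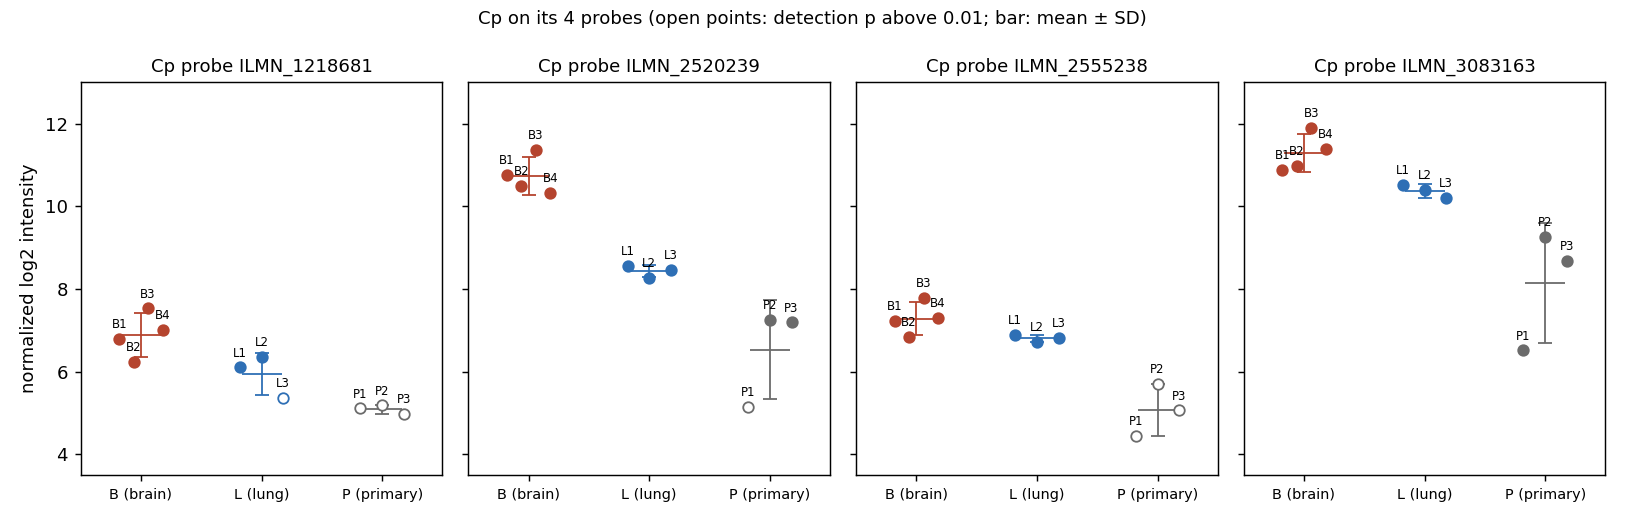
Normalized log2 intensity (vertical axis) of the 4 Cp probes on each array, with B, L and P sublines from left to right, the mean ± SD as bars and open points for arrays on which the probe was not detected. B lies above P on every probe, while the gap between B and L is 2.31 on ILMN_2520239 and 0.48 to 0.95 on the other probes.

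Lcn2, the siderophore-binding lipocalin, did not follow this order. It stood at 8.04, 12.27, 7.11 and 8.60 on B1 to B4, at 12.25, 12.11 and 9.83 on L1 to L3, and at 4.49, 8.69 and 8.13 on P1 to P3, where P1 was not detected. B2 was level with L1 and L2, while B1, B3 and B4 lay below every L array. The highest and the lowest B array differed 35.7-fold. The means were 9.0 ± 2.26 in B (SD, n = 4), 11.40 ± 1.36 in L (SD, n = 3) and 7.10 ± 2.28 in P (SD, n = 3). All 3 L arrays lay above all 3 P arrays, with a difference of 4.29 (SE 0.99), or 19.6-fold, and 2.98 without P1. The B arrays overlapped both other groups. B minus P was 1.90 (SE 1.27) and B minus L was -2.39 (SE 1.09). B minus P was 0.81 without B2, 0.59 without P1 and 1.18 with the processed values of the authors, and B minus L was -3.48 without B2.

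The spread of Lcn2 within a group was among the highest of the array. In B its SD of 2.26 was exceeded by 10 of 9065 genes detected in B, where the median SD was 0.29. In L its SD of 1.36 was exceeded by 2 of 8589 genes, and in P its SD of 2.28 by 1 of 8315 genes. Slpi and Cp also varied more among the P arrays than most genes, with 2 and 10 genes of higher SD, but Slpi had an SD of 0.54 and Cp of 0.46 in B. Not all of the spreads were wide: Cp had an SD of 0.15 in L, where the median over all genes was 0.19. Saa3 had an SD of 0.38 in B, above the median there, although it was not detected on any B array. Its SD was 1.04 in L, exceeded by 12 of 8589 genes, and 0.67 in P, exceeded by 173 of 8315 genes.

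Saa3, the extrahepatic serum amyloid A of the mouse, was dim throughout. It stood at 4.76, 5.32, 5.50 and 4.79 on B1 to B4, none of them detected, at 6.69, 7.38 and 5.33 on L1 to L3, where L3 was not detected, and at 4.71, 5.35 and 6.04 on P1 to P3, where only P3 was detected. L1 and L2, the arrays with the highest Saa3, were also high in Lcn2, while B2 was high in Lcn2 without a detected Saa3 signal. The groups overlapped in each comparison. The means were 5.09 ± 0.38 in B (SD, n = 4), 6.47 ± 1.04 in L (SD, n = 3) and 5.37 ± 0.67 in P (SD, n = 3). B minus P was -0.27 (SE 0.32) and L minus P was 1.10 (SE 0.48). B was lower than L by a fitted difference of -1.37 (SE 0.42), which was not called. The bound of at least 1.71-fold for it holds for the normalization used here only. L minus P was 0.64 without L2 and 1.66 without L3, and B minus L was -0.92 and -1.94 without them. With the processed values of the authors, the differences were -0.08 for B minus P, -0.45 for B minus L and 0.37 for L minus P.

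Ltf and Hp gave no signal above the negative controls in cultures of any origin. The lowest detection p over the 10 arrays was 0.177 for the 2 probes of Ltf and 0.0844 for the 3 probes of Hp. A transcript too scarce for these probes cannot be told apart from an absent one.

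Between B and P, 2 of the 4 genes tested passed an adjusted p under 0.05 in the limma fit over all genes, both higher in B, namely Slpi and Cp. Over all 9316 genes, 14.5% passed in either direction and 7.56% passed as higher in B. The arrays of B and P did not overlap for Slpi and Cp, as for 30.5% of all genes. The median difference of the 4 genes was 2.90, against -0.01 over all genes. Because the genes were chosen on these values, nothing is read from the counts.

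Between B and L, the same 2 genes passed, again both higher in B. The call of Cp came from ILMN_2520239. In a fit over all detected probes, where 995 of 14837 passed, ILMN_3083163, ILMN_2555238 and ILMN_1218681 did not pass. Over all 9386 genes, 8.10% passed in either direction, 3.85% passed as higher in B and 25.0% did not overlap. The median difference was -0.09, against -0.00 over all genes, since Slpi and Cp were higher and Lcn2 and Saa3 lower in B. With the replicate number as a block, 1 of the 4 genes passed, Cp, and Slpi did not. The 3 paired differences, B minus L, were 1.09, 0.24 and 2.14 for Slpi, 2.22, 2.24 and 2.90 for Cp, -4.20, 0.16 and -2.73 for Lcn2, and -1.93, -2.06 and 0.17 for Saa3, for numbers 1 to 3. Slpi also failed to pass when B1, B3, B4, L1, L2 or L3 was left out, Lcn2 passed as lower in B without B2, and Saa3 passed as lower in B without L3.

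Between L and P, 0 of the 4 genes passed in the limma fit, and the count was also 0 with the random variance model after adjustment. In the fit over all detected probes, where 35 of 14017 passed, the Cp probe ILMN_2555238 passed and the other Cp probes did not. All 4 genes were higher in L at an unadjusted p under 0.05, a threshold that 1315 of all 8835 genes passed in either direction. The arrays did not overlap for 3 of the 4, Slpi, Cp and Lcn2. Because the genes were chosen on these values, nothing is read from these counts. Over all 8835 genes, 0.419% passed in either direction, 0.385% passed as higher in L and 20.3% did not overlap. The median difference of the 4 genes was 2.30, against -0.01 over all genes. P1 and P2 bear on this count: without P1 Cp passed, and without P2 Lcn2 passed.

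**Figure D3:**
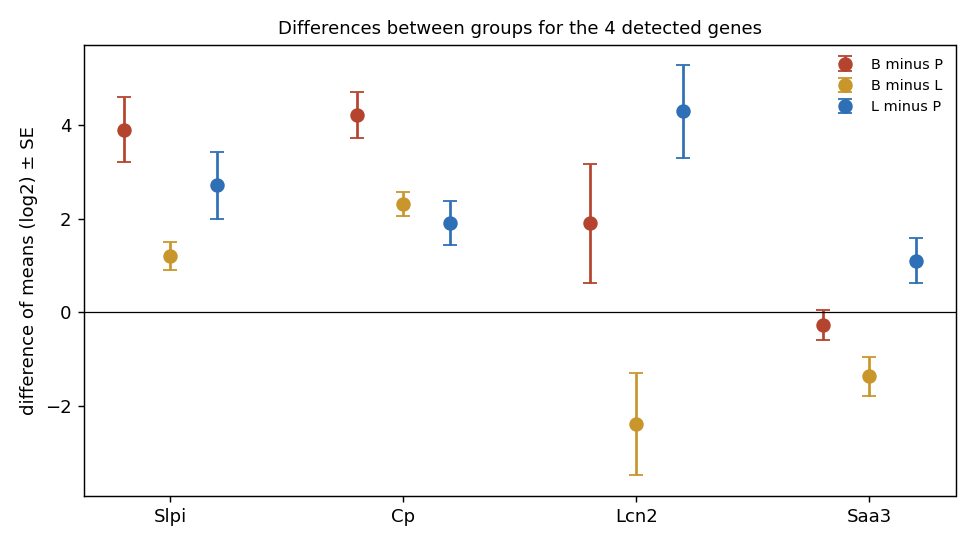
Difference of group means on the log2 scale ± SE (vertical axis) for Slpi, Cp, Lcn2 and Saa3, in B minus P, B minus L and L minus P. Slpi and Cp are above 0 in all 3 differences, whereas Lcn2 is at -2.39 for B minus L and at 4.29 for L minus P.

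Across the 10 arrays Slpi and Cp varied together and Lcn2 varied apart from them. Pearson's r was 0.94 between Slpi and Cp, 0.48 between Slpi and Lcn2 and 0.31 between Cp and Lcn2, while it was 0.65 between Lcn2 and Saa3 and -0.12 between Cp and Saa3. These values are descriptions over arrays that fall into 3 groups, so that genes which differ between the same groups share much of their variation. Among 8459 other genes, the 3 with the highest r to Slpi were Rilpl1 (0.967), Wfs1 (0.951) and Pmp22 (0.947), and the 3 with the highest r to Cp were Xdh (0.993), Pdgfrl (0.984) and Cyp4v3 (0.980). Xdh encodes xanthine oxidoreductase, a molybdenum and iron-sulfur enzyme. For Lcn2 they were Neu1 (0.884), Psmd10 (0.874) and Steap2 (0.853), of which Steap2 encodes a metalloreductase, and for Saa3 they were Baalc (0.908), Vps16 (0.893) and Timp3 (0.887).

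Most other proteins of the same classes were not measurable in these cultures. The counts of the lists below are a description and stand beside the shares of all genes that passed in either direction. These shares were 14.5% for B against P, 8.10% for B against L and 0.419% for L against P. Of 36 listed acute-phase plasma proteins, 5 had a detected probe for B against P, 6 for B against L and 4 for L against P, and 0 of them passed in any comparison, either in limma or with the random variance model after adjustment. At an unadjusted p under 0.05 the numbers were 0, 2 and 1. Metallothionein 1, Mt1, which binds zinc and copper, was bright in all groups, at 14.26 in B, 13.66 in L and 13.90 in P, with an adjusted p of 0.0698 for B against L in the limma fit. Of 24 listed relatives of Slpi (whey acidic protein family) and Lcn2 (lipocalin family), 3, 3 and 2 were tested and 0 passed by either method, with 0, 1 and 0 at an unadjusted p under 0.05. Wfdc2, a relative of Slpi that is also secreted by epithelia, was bright in all groups, at 14.43 in B, 14.58 in L and 14.54 in P, and differed from P by -0.10 in B and 0.05 in L. Of 34 listed complement components and regulators, 1 of 8 tested rose in B against P, Masp1, a protease of the lectin pathway, at 10.28 ± 1.00 in B against 7.93 ± 0.70 in P (SD, n = 4 and 3), with a difference of 2.35 (SE 0.52, adjusted p = 0.0194). This call was lost without P1 and without P2, and the other Masp1 probe gave 0.89 and was not called.

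The receptors and partners of these proteins were detected in part. The Lcn2 receptor Slc22a17 was detected on 1 B array only, and Lrp2, another Lcn2 receptor, on none. The neutrophil serine proteases Elane, Ctsg and Prtn3, the haemoglobin scavenger receptor Cd163, the alpha-globin gene Hba-a1, the lactoferrin-binding Itln1, the C3a receptor C3ar1, and the serum amyloid A receptors Cd36 and Fpr2 were also detected on none, and Scarb1 on 1 L array only. Lrp1, Tlr2, Tlr4, Plscr1, Mmp9 and Grn were detected on all 10 arrays. Grn encodes progranulin, which Slpi protects from cleavage by elastase, and it rose in B against P, at 12.74 ± 0.29 in B and 11.21 ± 0.30 in P (SD, n = 4 and 3; difference 1.54, SE 0.22, adjusted p = 0.00398). Tlr4, the lipopolysaccharide receptor, also rose in B, at 9.66 ± 0.12 in B, against 8.47 ± 0.35 in L and 8.31 ± 0.08 in P (adjusted p = 0.00972 against L and 0.00243 against P). In all, 3 of 7 tested genes rose in B against P, 2 of 8 rose and 1 fell in B against L, and 1 of 7 rose in L against P. Lrp1, a scavenger receptor of the same family as Lrp2, was the other gene that rose in B against P, at 8.34 ± 0.53 in B and 7.34 ± 0.26 in P (SD, n = 4 and 3; SE of the difference 0.28, adjusted p = 0.0438), a call lost without B1, B2, B4, P1, P2 or P3. The count for B against L was 1 without L1 and 1 without L2, as Grn and Mmp9 lost their calls without either, and that for L against P was 0 without any 1 of L1, L2, L3, P1 and P3.

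Mmp9, the gelatinase that forms a complex with the Lcn2 protein, had its highest mean in L, as Lcn2 did. It stood at 8.17, 6.42, 9.0 and 6.01 on B1 to B4, at 9.81, 10.61 and 9.78 on L1 to L3, and at 7.63, 8.70 and 7.91 on P1 to P3. All L arrays lay above all others, but B2, the B array with the highest Lcn2, was low in Mmp9. The difference was -2.67 for B against L (SE 0.65, adjusted p = 0.0368) and 1.99 for L against P (SE 0.30, adjusted p = 0.0320). Neither call held in most fits that left out 1 array: the first was lost without B1, B2, B4, L1, L2 or L3, and the second without L1, L2, L3, P1 or P3.

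Among genes that carry the inflammatory signal to acute-phase promoters, the receptor chain for interleukin 6 was higher in B than in both other groups. Il6ra was at 9.08, 9.76, 9.28 and 8.92 on B1 to B4, at 6.82, 6.91 and 7.44 on L1 to L3, and at 6.66, 6.96 and 7.21 on P1 to P3. Every B array was above every other array, by 2.20 against L (SE 0.24, adjusted p = 0.00217) and by 2.32 against P (SE 0.23, adjusted p = 0.00232). Of its other 2 probes, both passed as higher in B against P and 1 of them against L. Tnfrsf1b, a receptor of tumour necrosis factor, rose in B against P by 1.20 (SE 0.20, adjusted p = 0.00808). Traf3ip2, the adaptor of the interleukin 17 receptor, rose in B by 0.97 against P (SE 0.18, adjusted p = 0.0116; lost without P1) and by 0.79 against L (SE 0.18, adjusted p = 0.0312; lost without B1, B2, B4, L1, L2 or L3 and with the replicate block). With the processed values of the authors, the difference of Tnfrsf1b was 0.40, and those of Il6ra were 1.44 against L and 1.49 against P. Over the list of interleukin 6, interleukin 1, interleukin 17 and tumour necrosis factor inputs, 4 of 18 tested genes rose in B against P (2 without P1), 2 rose and 1 fell of 18 in B against L (1 called without B1, B4, L1 or L2), and 1 of 16 rose in L against P, Osmr, a call lost without any 1 of L1, L2, L3, P1 and P3.

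The gene for interleukin 1 alpha, Il1a, resembled Lcn2 in which array stood out within each group, but not in the order of the groups. It stood at 4.84, 8.27, 4.62 and 5.06 on B1 to B4, at 10.65, 10.76 and 7.69 on L1 to L3, and at 7.13, 9.21 and 8.84 on P1 to P3. Il1a was detected on 1 of 4 B arrays and on all L and P arrays. B2 was the highest B array, L3 the lowest L array and P1 the lowest P array in both genes. B was lower than L by a difference of -4.00 (SE 0.97, adjusted p = 0.0367), with overlap between B2 and L3, and the call was lost without B1, B3, B4, L1 or L2. Nfkbiz, which encodes the NF-kappaB cofactor IkappaB-zeta, known in mouse cells for its part in the induction of Lcn2, stood at 8.78, 10.09, 9.11 and 9.05 on B1 to B4, at 11.12, 10.95 and 10.11 on L1 to L3, and at 9.19, 10.34 and 10.39 on P1 to P3. B2, L3 and P1 held the same places in it. B was lower than L by a difference of -1.47 (SE 0.34, adjusted p = 0.0325), a call lost without B1, B4, L1 or L2 and with the replicate block. Between B and P both genes went the other way from Lcn2. B minus P was -2.70 for Il1a and -0.71 for Nfkbiz, against 1.90 for Lcn2, none of them called. Neither gene was among the 3 with the highest r to Lcn2. The likeness of Il1a and Nfkbiz to Lcn2 by array was noted after the values were seen and was not tested.

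**Figure D4:**
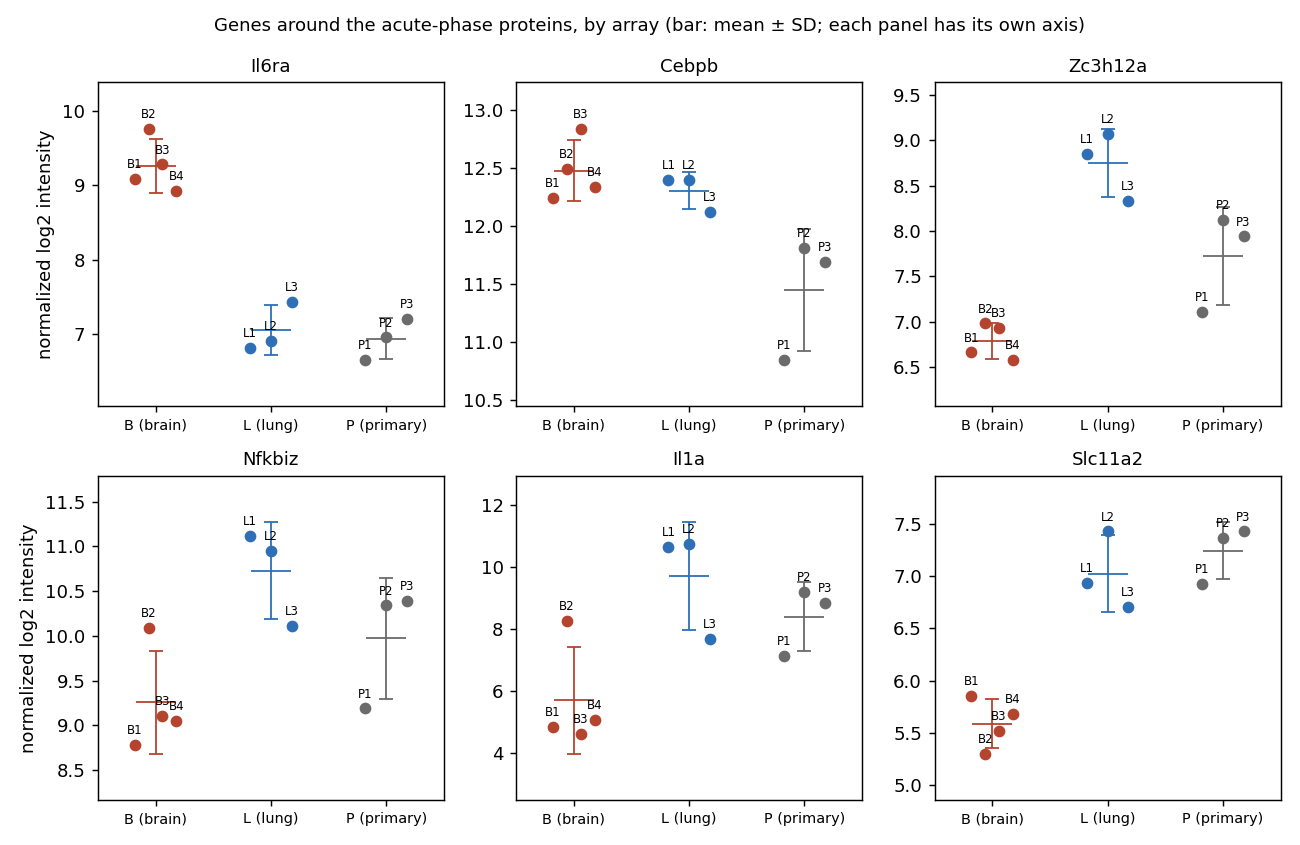
Normalized log2 intensity (vertical axis, a separate scale for each panel) of Il6ra, Cebpb, Zc3h12a, Nfkbiz, Il1a and Slc11a2 on each array, with B, L and P sublines from left to right and the mean ± SD as bars. Il6ra is highest on the B arrays at 8.92 to 9.76, Slc11a2 is lowest on the B arrays at 5.30 to 5.85, and B2 is the highest B array for Nfkbiz and Il1a.

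In the list of STAT3, C/EBP and NF-kappaB factors and feedback genes, those that passed between B and L were all lower in B. Stat3 (-0.34), Socs3 (-0.11), Jak2 (0.46), Cebpb (0.17) and Cebpd (-0.16) did not pass there, so the calls do not speak for all 3 arms. Of 22 tested, 8 fell and 0 rose in B against L (36.4%, against 8.10% of all genes, median difference -0.17). In B against P, 1 rose and 4 fell (22.7%, against 14.5% of all genes). In L against P 0 of 20 passed, where 6 were higher at an unadjusted p under 0.05. The lists were chosen with earlier results of these data known, so these counts are a description. With the random variance model, 0 passed in L against P after adjustment. Zc3h12a, which encodes the RNase regnase-1 that degrades inflammatory mRNAs, fell in B to 6.79 ± 0.20 (SD, n = 4), against 8.75 ± 0.38 in L (SD, n = 3; difference -1.96, SE 0.21, adjusted p = 0.00192). Bcl3, an atypical IkappaB protein, fell in B to 5.57 ± 0.40 (SD, n = 4), against 7.25 ± 0.16 in L (SD, n = 3; difference -1.68, SE 0.23, adjusted p = 0.00418). Cebpb, a C/EBP factor of the acute-phase response, was the gene that rose in B against P, at 12.48 ± 0.26 in B and 11.45 ± 0.52 in P (SD, n = 4 and 3; difference 1.02, SE 0.26, adjusted p = 0.0301), a call lost without B1, B2, P1 or P3. Nfkb2 and Relb, the subunits of the non-canonical NF-kappaB factor, fell in B against P, by differences of -1.20 (SE 0.22, adjusted p = 0.0110) and -0.79 (SE 0.19, adjusted p = 0.0276), and Zc3h12a fell there too (difference -0.94, SE 0.25, adjusted p = 0.0372). These calls were lost without P1 or P3 for Nfkb2, without P1, P2 or P3 for Relb, and without B1, B4, P2 or P3 for Zc3h12a. With the processed values of the authors, B minus L was -1.17 for Zc3h12a and -0.60 for Bcl3, and B minus P was -0.38 for Nfkb2 and -0.40 for Relb. Bcl3 and Nfkb2 were each detected on 1 of 4 B arrays. The count for B against L was 5 with the replicate block and 5 without B4, and 2, 3 and 4 without L1, L2 and L3. That for B against P was 2 without B1, 1 without P1, 2 without P2 and 0 without P3.

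Of the genes of cellular iron handling, which take up, store and export iron, Slc11a2 was the one whose calls held whichever array was left out. Of 23 tested, 1 rose and 3 fell in B against P, 1 rose and 2 fell in B against L, and 0 of 22 passed in L against P, where 3 had an unadjusted p under 0.05 and 0 passed with the random variance model after adjustment. Slc11a2, the iron importer DMT1, was at 5.85, 5.30, 5.52 and 5.68 on B1 to B4, at 6.94, 7.43 and 6.71 on L1 to L3, and at 6.93, 7.37 and 7.43 on P1 to P3. All B arrays lay below all others, by a difference of -1.44 against L (SE 0.21, adjusted p = 0.00666) and -1.66 against P (SE 0.20, adjusted p = 0.00259). With this probe Slc11a2 was detected on 2 of 4 B arrays. Of its 2 other probes, 1 passed in the same direction in both comparisons, and with the processed values of the authors the differences were -0.51 against L and -0.60 against P. The transferrin receptor Tfrc was at 11.24 ± 0.41 in B and 12.12 ± 0.27 in P (SD, n = 4 and 3; difference -0.88, SE 0.25, adjusted p = 0.0423), a call lost without B1, B3, P1, P2 or P3. Ireb2, which encodes an iron regulatory protein, fell in B against P (-0.61, adjusted p = 0.0447) and against L (-0.79, adjusted p = 0.0276), but its other probe gave -0.06 and -0.13 and was not called. The first of these calls was lost without B1, B2, B3, P1, P2 or P3, and the second without B1, L1, L2 or L3. Hfe, a partner of the transferrin receptor, rose in B against P by 1.08 (SE 0.27, adjusted p = 0.0305), and its other probe gave 0.63 and was not called. Steap3, an endosomal ferrireductase, rose in B against L at 5.73 ± 0.17 in B and 5.03 ± 0.18 in L (SD, n = 4 and 3; adjusted p = 0.0372), where no L array was detected, and its other probe gave 0.10 and was not called. The call of Hfe was lost without B1, B4, P1 or P3, and that of Steap3 without B1, B2, B4, L1, L2 or L3. The count for B against P was 1 without B1, P1 or P3 and 2 without B3 or P2, and that for B against L was 1 without B1, L1, L2 or L3.

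Of 27 other antimicrobial and epithelial secreted proteins, 6 were tested in each comparison. In B against L, 1 rose and 3 fell, in B against P 1 rose, and in L against P 0 passed, where 2 had an unadjusted p under 0.05 and 0 passed with the random variance model after adjustment. The lysozyme genes Lyz1 and Lyz2, whose product digests bacterial cell walls, were detected on all L arrays and on 0 of 4 B arrays. Relative to L, B was at least 6.52-fold lower in Lyz1 (adjusted p = 0.000196) and at least 1.81-fold lower in Lyz2 (adjusted p = 0.00269). These bounds hold for the normalization used here only. Over the alternatives that kept every array, the log2 difference shrank to as little as -1.56 for Lyz1 and -0.67 for Lyz2. Lyz1 and Lyz2 are close copies of each other, so their probes may not tell them apart, and Lyz2 also stands among the macrophage markers below. In P the levels of Lyz1 and Lyz2 ran from 4.60 to 8.02 and from 4.48 to 6.48, with P1 lowest. Muc1, an epithelial mucin that was not detected on any B array, was at least 1.59-fold lower in B than in L (adjusted p = 0.0158), a call lost without L1 or L2 and with the replicate block. Its log2 difference shrank to as little as -0.48 over the same alternatives. Cst3, the protease inhibitor cystatin C, was the gene that rose in B, by 0.99 against L (adjusted p = 0.0218) and 0.81 against P (adjusted p = 0.0230), calls lost without L1 or L2 and without P1, P2 or P3. The count for B against L was 2 without L1 and 2 without L2, and that for B against P was 2 without B2 or P1 and 0 without P2 or P3.

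Lcn2 and Ltf are also genes of neutrophils, and markers of other cell types were read on the same arrays. Of 17 neutrophil markers with a probe, 3 were detected on any array (Csf3r, Gfi1 and S100a8), with 0 to 2 per B array, 0 to 1 per L array and 0 to 1 per P array. The summed linear level of all 17, those not detected included, ran from 182 to 565 in B, from 192 to 460 in L and from 177 to 261 in P. For each list such a sum runs over all markers with a probe, so that signal at background level adds to it. Elane, Mpo, Camp and Ngp, with the pan-leukocyte gene Ptprc, were detected on 0 of 10 arrays. Ly6g had no probe under that symbol. Of 16 macrophage and microglia markers, 3 were detected (Cd14, Lyz2 and P2ry12), with Csf1r not detected. Cd14 was detected on all 10 arrays, Lyz2 on 3 L and 1 P array, and P2ry12 on 2 L arrays only. In B against L, 2 of these 3 passed as lower in B (66.7%, against 8.10% of all genes). All 3 were lower there at an unadjusted p under 0.05. In B against P and L against P, 0 passed. The sum over all 16 was highest in L, at 236 to 473 in B, 586 to 743 in L and 387 to 475 in P. Of 10 fibroblast and pericyte markers, 4 were detected (Dcn, Pdgfra, Pdgfrb and Thy1), with Col1a1, Col1a2 and Col3a1 not detected. The sum over all 10 followed the order of Slpi and Cp, at 715 to 2920 in B, 412 to 654 in L and 177 to 307 in P. Of the 4, only Pdgfra was detected on all 10 arrays. Dcn was detected on 1 B and 1 L array, Pdgfrb on 1 B array and Thy1 on 1 P array only. Of 9 lung epithelial markers, 2 were detected (Ager and Aqp5), and the sum over all 9 was 549 to 960 in B, 238 to 365 in L and 212 to 360 in P. These 2 went opposite ways in B against L, as 1 passed as higher and 1 was lower at an unadjusted p under 0.05. Of 10 hepatocyte markers 1 was detected (Hnf4a), of 8 astrocyte markers 1 (Gja1), of 9 endothelial markers 1 (Eng), and of 11 neuron and oligodendrocyte markers 3 (Map2, Mbp and Tubb3), and the summed levels of these lists overlapped between B and L. The sums of the endothelial and hepatocyte lists were higher on every B array than on every P array, at 398 to 511 in B and 359 to 368 in P for the first, and at 110 to 137 in B and 106 to 109 in P for the second. Each of these sums holds at most 1 detected marker, the rest being markers not detected. The part of these cell types in the levels of Slpi, Cp, Lcn2 and Saa3 was not tested, and in bulk RNA fewer cells of a type cannot be told apart from less RNA per cell.

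Of 15 mammary epithelial markers, 11 were detected, among them Krt8, Krt18 and Cdh1 on all 10 arrays, while the probe of Epcam was detected on none. The number detected per array was 6 to 11 in B and 11 on every L and P array. The summed level of all 15 was 31100 to 41300 in B, 43200 to 51400 in L and 34700 to 45000 in P. Of 11 tested, 4 fell in B against P (median difference -1.93) and 4 fell in B against L (median difference -2.44), with 0 called in L against P, where 3 had an unadjusted p under 0.05. The part of this shift in the differences of Slpi and Cp was not tested. Median raw intensities overlapped between the groups, at 68.81 to 85.14 in B, 69.15 to 85.95 in L and 72.60 to 83.78 in P, whereas every B array (14796 to 15563 probes) and every L array (14764 to 14938) had more detected probes than every P array (14218 to 14635). The part of this difference in the levels of Slpi and Cp was not tested.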

How the data were processed

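RNA of 10 cultured 4T1 sublines was hybridized to Illumina MouseWG-6 v2.0 arrays, 1 array per subline. The authors extracted the intensity values with GenomeStudio, and the deposited intensities are mean bead signals per probe, not normalized and with the background left in. A detection p-value was deposited for each probe on each array and comes from the negative control beads. The authors also deposited processed values on a scale close to log2, made with lumi (variance stabilization, then robust splines), for the 17550 probes detected on at least 1 array. These served as an alternative. Neither the software versions nor the slide of each array is stated in the sources used here.

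The intensities were background-corrected with the detection p-values and quantile-normalized with neqc of limma 3.58.1 in R 4.3.3 (offset 16). Probes were named from the platform annotation: 34885 of 45281 had 1 symbol, 18 several and 10378 none, and only those with 1 symbol were used. Detection meant a detection p of at most 0.01, and a probe entered a test if it was detected on 1 or more arrays of the 2 groups. Where a gene had more than 1 detected probe (3721 of 9486 genes), it was read from the one whose interquartile range across the 10 arrays was largest. The moderated test of limma was fitted to the arrays of the 2 groups, with Benjamini-Hochberg adjustment over all genes and calls at an adjusted p under 0.05. The procedure was tested on simulated data. Where all arrays of a group missed detection, its values were lifted to the dimmest detected signal of each array, and the fold is a lower bound for these normalized values. Other settings can give smaller differences. The number of arrays limits the precision.

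The members and lists were chosen with earlier results of these data known. The genes named are all members, all measured receptors and partners, up to 3 called genes of each of 8 lists with the largest change in each direction and comparison (further ones only as counts), the 3 genes most like each member by Pearson's r, and fixed marker genes of 9 cell type lists. Mt1, Wfdc2, Stat3, Socs3, Jak2 and Cebpd fell outside this rule and were named after their values were seen. Gene positions and promoter windows come from RefSeq (GRCm38.p6).

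B and L arrays of the same number deviated together from their group means (r of 0.14 to 0.21 in 3 of 3 pairs, against -0.11 to 0.06 for other pairs), and the numbers were taken as pairs there. No source says what a number marks. This did not hold for B and P (-0.12 to 0.04) or L and P (-0.10 to 0.09). B4 has no partner, so the blocked fit rests on the other arrays. Alternatives changed the background correction, offset, scaling, values, filter, probe choice, fitted samples, block, call rule, test (the random variance model named in the methods) and left out each array in turn.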

Additional observations from a re-analysis of the deposited data

Results flagged for a closer look

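Il1a stood apart on 1 B array. B2 was at 8.27 on the log2 scale, against 4.62 to 5.06 on the other B arrays, and its gap to the nearest of them made up 0.879 of the whole range of the group, above Dixon's critical value for 4 samples. The probe was detected on 1 of 4 B arrays, so most values behind this gap were below detection. This was 1 of 36 probes examined in B, and chance alone flags about 1 in 20 groups.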

How the results depend on the processing

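The count of Slpi, Cp, Lcn2 and Saa3 called between B and P was 2 under all 20 alternatives, which is no support for these differences, since the genes were chosen on them. Between B and L the count of 2 became 1 with median scaling, no filter on dim probes, the probe with the highest mean, all 10 arrays in 1 model, the replicate block, an unadjusted p under 0.001, and the random variance model at that threshold. It ran from 1 to 3 when 1 array was left out. Between L and P the count of 0 became 3 with median scaling, an offset of 50 or no background correction, and 2 with the processed values of the authors. It ran from 0 to 1 when 1 array was left out. The cause of these changes was not tested. The replicate number pairs no B and P or L and P arrays, and there the replicate block left the counts at 2 and 0. The differences of these 4 genes kept their sign in every alternative but not their size: with the processed values of the authors, Lcn2 was 1.18 for B against P, Cp 2.88 for B against P and 0.96 for L against P, and Saa3 -0.08, -0.45 and 0.37 for B against P, B against L and L against P. Cp between B and L was 0.91 with the probe of the highest mean. Over all genes, the replicate block gave 702 calls for B against P (1350 without it), 656 for B against L (760) and 9 for L against P (37), and an unadjusted p under 0.001 gave 545, 366 and 110, close to the 542, 368 and 113 of the random variance model. All 10 arrays in 1 model gave 1152 calls for B against L and 0 for L against P. For L against P the count was 163 without background correction, 154 with an offset of 50, 185 with median scaling, 65 with the processed values, 61 with detection on at least 3 arrays and 0 with no filter on dim probes. When 1 array was left out, it ran from 335 to 1421 for B against P, from 130 to 842 for B against L and from 0 to 122 for L against P. Over the 4 genes and the listed genes named, 619 alternative values stayed on the same side of the threshold, 138 lost the call, 15 gained it and 0 changed sign. Detection limits Saa3, Ltf and Hp, whose probes lay at or below the negative controls on most arrays or all of them.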
